A study of Equus caballus with 32 samples.

Results

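Transcripts of 9 genes tied to B cells and to plasma cells were followed in the venous blood of 32 Welsh Pony mares (Equus caballus). The B cell genes were PAX5, FCRLA, MS4A1, CD79A, CD79B and BLK. CD38, XBP1 and PRDM1 were listed as plasma cell genes, a label that is checked below. All 9 are called members. They were taken as the non-control probes of the array that carry these gene names, which gave 12 probes of 43987 and 9 genes of the 9397 named genes with a tested probe. For 8 of the 9 genes the name stood in the files, while XBP1 stood there as LOC100059209 and was named through its gene ID in a RefSeq gene table. All 12 probes were well above background on all 32 arrays, so no member was lost to the filter on dim probes.

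Blood was drawn 30 days after the foals had been weaned, with 16 mares in the progressive weaning group and 16 in the brutal weaning group. The labels do not say how either weaning was carried out, and all mares were adult females of 1 breed. Each mare gave 1 single-colour Agilent array, and the 32 arrays lay on 4 slides each with 4 progressive and 4 brutal mares. A level is the log2 signal relative to the 75th percentile of its array, so a level of 0 is that percentile.

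B cells are the lymphocytes that carry antibody on their surface as an antigen receptor. CD79A and CD79B are the signalling subunits of that receptor, and each carries an immunoreceptor tyrosine-based activation motif in its cytoplasmic tail. When a B cell becomes an antibody-secreting plasma cell, PRDM1 (Blimp-1) represses the B cell programme, including PAX5, and XBP1 expands the secretory apparatus. These roles are best known from mouse and human. In blood, CD38, XBP1 and PRDM1 are also made by other leukocytes, and plasma cells are rare there.

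The probes of both receptor subunits are shown first because their transcripts followed each other most closely over the mares. Capitals mark the longest run of bases that the 2 probes share, 9 bases of 60. By the files' annotation, on EquCab1, the CD79A probe lies on unplaced sequence on the plus strand (chrUn:360355771-360355961) and the CD79B probe on chromosome 11 on the plus strand (chr11:14283975-14284141). Each interval is longer than the probe, so the probe's bases are not contiguous in that assembly.
CD79A: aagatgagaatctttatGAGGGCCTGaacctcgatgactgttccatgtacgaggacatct
CD79B: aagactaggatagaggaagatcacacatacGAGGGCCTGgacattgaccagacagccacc

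PAX5 and PRDM1 are shown because they are the pair of transcription factors that oppose each other in the background above. The PAX5 probe is annotated on chromosome 25, plus strand (chr25:33387742-33394678), an interval that again exceeds 60 bases, and the PRDM1 probe on chromosome 10, plus strand (chr10:51067888-51067947).
PAX5: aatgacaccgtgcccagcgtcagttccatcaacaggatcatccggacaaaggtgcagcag
PRDM1: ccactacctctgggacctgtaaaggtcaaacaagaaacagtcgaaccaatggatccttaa

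CD38 was the member with the most probes. Its 3 probes tile 1 stretch of the transcript on the minus strand of chromosome 3, at chr3:101026783-101026842, chr3:101023737-101026801 and chr3:101023707-101023766. Capitals mark the bases that one probe shares with its neighbour, 19 between probes 1 and 2 and 30 between probes 2 and 3.
CD38 probe 1: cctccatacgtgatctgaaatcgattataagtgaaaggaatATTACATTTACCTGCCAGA
CD38 probe 2: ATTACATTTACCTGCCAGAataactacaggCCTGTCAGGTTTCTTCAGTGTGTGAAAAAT
CD38 probe 3: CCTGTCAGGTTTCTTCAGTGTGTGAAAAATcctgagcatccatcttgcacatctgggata

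The mean log2 level over all mares was -2.35 on probe 1, -1.02 on probe 2 and -0.04 on probe 3, although all of them read 1 gene. The mares nevertheless ranked alike on them, with r = 0.95 between probes 1 and 2, r = 0.98 between probes 2 and 3, and r = 0.93 between probes 1 and 3, which share no bases. Overlapping probes are not separate measurements, and probe 3, the brightest, stands for CD38. MS4A1 has 2 probes that share 18 bases, with r = 0.96 between them, and the brighter stands for the gene. Levels of different probes are not set against each other below.

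The first question was whether the kind of weaning left a difference in these transcripts. None of the 9 genes differed between the groups past the threshold. In all 9 the 2 groups overlapped, and the share of all genes that do so is not given here. Over the whole array limma found no probe among 26368 tested (0.00%) and no gene among 9397 (0.00%) past an adjusted p of 0.05, so the absence of a call is not particular to these genes. Without adjustment, 726 probes (2.75%) and 239 genes (2.54%) had a p under 0.05, and none of the 9 members was among them. The members' adjusted p-values, over all probes, were at least 0.996 by limma with Benjamini-Hochberg adjustment. Fewer cells of a type and less RNA per cell cannot be told apart in whole blood.

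**Figure D1:**
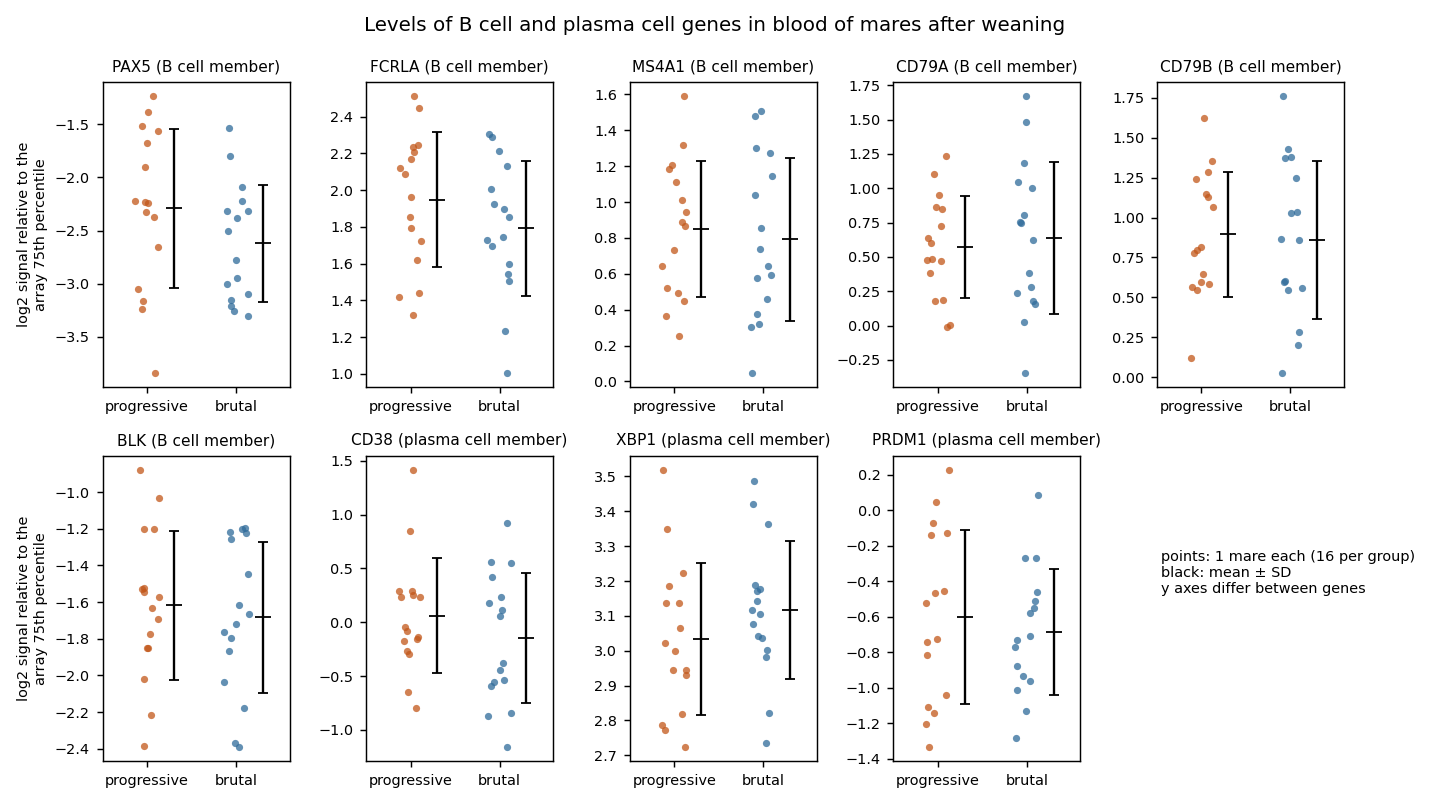
Level of each gene in each mare, as log2 signal relative to the array's 75th percentile, for progressive (left, 16 mares) and brutal weaning (right, 16 mares), with the mean and SD in black and a y axis of its own per gene. In all 9 panels the 2 groups overlap.

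PAX5, the transcription factor that commits a cell to the B lineage and keeps it there, showed the largest difference when the brightest probe stood for each gene. With the mean of a gene's probes CD38 was at 0.34 and PAX5 at 0.33. The log2 level of PAX5 ran from -3.84 over a median of -2.24 to -1.24 in progressive mares, and from -3.30 over a median of -2.64 to -1.54 in brutal mares. The lowest and the highest mare were both progressive, and the brutal range lay wholly inside the progressive one. The means were -2.29 ± 0.75 (SD, n = 16) in progressive mares and -2.62 ± 0.55 (SD, n = 16) in brutal mares. The difference was 0.33 (SE 0.22, limma unadjusted p = 0.147), a 1.26-fold ratio with a 95% interval of 0.918 to 1.72. It was above 0 on 4 of 4 slides, with values between 0.04 and 0.75.

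In both receptor subunits the group means lay less than 1 SE apart. CD79A had levels of -0.01 (lowest), 0.54 (median) and 1.24 (highest) in progressive mares, against -0.35, 0.68 and 1.67 in brutal mares. The brutal group held both the lowest and the highest mare. Its difference was -0.07 (SE 0.16), a ratio of 0.955 with a 95% interval of 0.761 to 1.20. CD79B had levels of 0.12, 0.81 and 1.62 in progressive mares, against 0.03, 0.86 and 1.76 in brutal mares. Again both ends of the range were brutal mares, and the difference was 0.03 (SE 0.15).

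MS4A1 encodes CD20, a surface protein of mature B cells. Its lowest, median and highest levels were 0.25, 0.88 and 1.59 in progressive mares, against 0.05, 0.69 and 1.50 in brutal mares, and the difference was 0.06 (SE 0.14). BLK, a Src family kinase that acts downstream of the B cell receptor, had levels of -2.39, -1.60 and -0.88 in progressive mares, against -2.39, -1.69 and -1.20 in brutal mares. The lowest mares of both groups had nearly the same BLK level, and the difference was 0.07 (SE 0.14). FCRLA, an intracellular Fc receptor-like protein of B cells, had levels of 1.32, 2.03 and 2.51 in progressive mares, against 1.0, 1.80 and 2.30 in brutal mares. Its difference of 0.15 (SE 0.13, limma unadjusted p = 0.231) was the second largest of the B cell genes.

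CD38, an ectoenzyme that consumes NAD, had levels of -0.79, -0.06 and 1.42 in progressive mares, against -1.16, -0.16 and 0.92 in brutal mares. The difference was 0.21 (SE 0.19), a ratio of 1.15 with a 95% interval of 0.877 to 1.52. On its dimmer probes 1 and 2 the difference was 0.52 (SE 0.34) and 0.28 (SE 0.21), so its size depended on the probe while its sign did not. PRDM1 had levels of -1.33, -0.62 and 0.23 in progressive mares, against -1.28, -0.72 and 0.09 in brutal mares, and a difference of 0.08 (SE 0.15). XBP1 had levels of 2.72, 3.01 and 3.52 in progressive mares, against 2.74, 3.11 and 3.49 in brutal mares. Its difference of -0.08 (SE 0.08) came with the narrowest interval of the 9 genes, a ratio between 0.849 and 1.05.

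**Figure D2:**
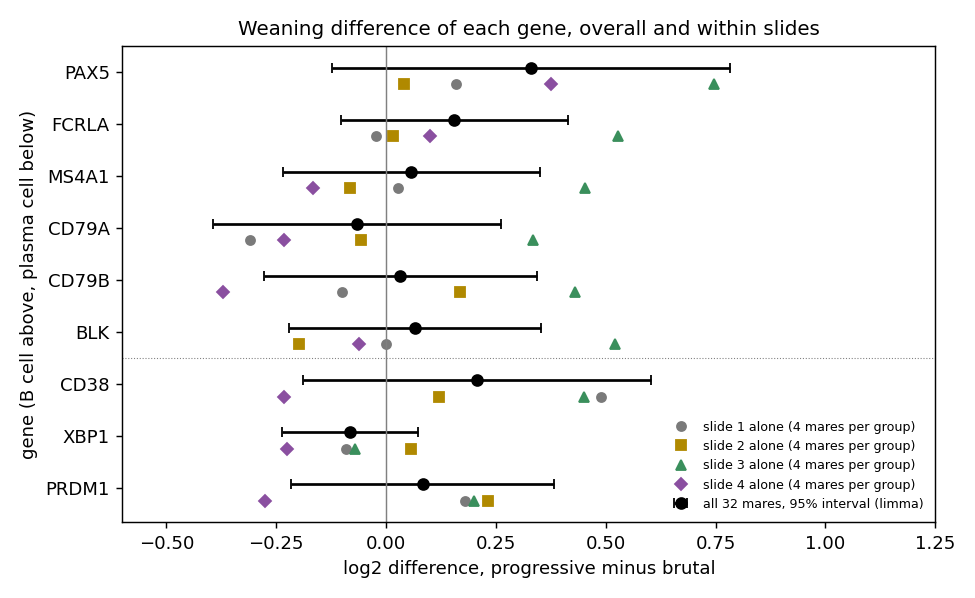
Log2 difference, progressive minus brutal, of each gene over all 32 mares with its 95% interval (black) and within each slide (coloured markers, 4 mares per group). Every black interval includes 0, and on slide 3 the 6 B cell genes all lie above 0.

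The slides did not give 1 answer for the B cell genes. On slide 3 alone all 6 were higher in progressive mares, by 0.33 (CD79A) to 0.75 (PAX5), and the median was 0.49. On slide 4 alone 4 of the 6 were lower, with CD79B at -0.37, CD79A at -0.23, MS4A1 at -0.17 and BLK at -0.06. Without slide 3 the difference of MS4A1 was -0.07, that of BLK -0.09 and that of CD79B -0.10. For CD38 and PRDM1, slides 1 to 3 lay above 0 and slide 4 lay below it, at -0.23 and -0.28. With slide as a block in the fit, no member passed the threshold either.

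As lists, 5 of the 6 B cell members and 2 of the 3 plasma cell members lay above 0, where 3922 of all 9397 genes (41.7%) did. The members' differences are not independent of each other. The median difference was 0.06 for the B cell members, 0.08 for CD38, XBP1 and PRDM1 and -0.02 for all genes. The wider B cell lists had medians just below 0. Of 14 further B cell surface and co-receptor genes measured, 6 lay above 0, with a median of -0.03. The smallest unadjusted p values there belonged to CD81, a tetraspanin, at -0.16 (SE 0.09), and to FCER2 (CD23, the low-affinity IgE receptor) at 0.41 (SE 0.23). Of 13 B cell receptor signalling genes, 5 lay above 0, with a median of -0.03, and PTPN6 (the phosphatase SHP-1) and VAV1 (an exchange factor) differed by -0.14 and -0.19. Of 10 B cell transcription factors, 4 lay above 0, with a median of -0.02, and AFF3 and BCL6 differed by 0.16 and -0.09.

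Of 13 measured plasma cell genes other than the members, 9 lay above 0, with a median difference of 0.10. The chemokine receptor CCR10 and the elongation factor ELL2 had the smallest unadjusted p there and differed by 0.22 (SE 0.21) and 0.10 (SE 0.10). Of 28 genes of secretion and the unfolded protein response, 10 lay above 0, with a median of -0.01, among them ATF4 (a stress transcription factor) at -0.14 and EIF2AK3 (the ER stress kinase PERK) at 0.12. No gene of these lists passed the threshold by limma, and none had an unadjusted p under 0.05.

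Lists of other blood cells held genes on both sides of 0, while every list median lay below 0. Of 16 neutrophil markers, 1 lay above 0, with a median of -0.27, and LTF (lactoferrin) differed by -0.92 and NCF1 (a subunit of the NADPH oxidase) by -0.30. The mean level of the neutrophil list ran from 1.08 to 2.72 in progressive mares and from 1.34 to 2.61 in brutal mares. Of 13 monocyte markers, 4 lay above 0, with a median of -0.06, led by TYMP at -0.29 and CCR2 at -0.36. The monocyte list ran from 1.45 to 2.52 in progressive mares and from 1.16 to 2.40 in brutal mares. T cell markers split evenly, 7 of 14 above 0, with LEF1 at 0.19 and CCR7 at 0.15. NK and cytotoxic markers had 4 of 14 above 0, with a median of -0.12, KLRB1 at -0.50 and GZMB at -0.31. Erythroid and platelet markers each had 1 of 8 above 0, with medians of -0.50 and -0.39. SELENBP1 was at -0.47, AHSP at -0.97, F13A1 at -0.77 and PF4 at -0.37. Plasmacytoid dendritic cell markers had 3 of 7 above 0, with PACSIN1 at -0.22 and GZMB, which that list shares. None of these genes passed the threshold. Without adjustment, limma gave p under 0.05 for 3 monocyte, 3 platelet, 2 neutrophil and 2 erythroid markers and 1 NK marker. Over all genes 239 of 9397 (2.54%) had such a p. The part of these cells in the members' values was not tested here.

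Single mares lay much further apart than the group means. The highest mare exceeded the lowest by 6.07-fold in PAX5, 5.96-fold in CD38, 4.05-fold in CD79A and 3.33-fold in CD79B, against 1.73-fold in XBP1. The SD within groups placed PAX5 above 94.0% and CD38 above 90.1% of all genes, and XBP1 above 20.1%. The spread also depended on the probe. Over all mares the SD was 1.03 on the dimmest CD38 probe, 0.62 on the next and 0.57 on the brightest. How far a low signal, such as the mean level of -2.45 for PAX5, widened the spread was not tested. CD79B and XBP1 were spotted 2 times on each array, and the SD over mares was 5.70 times the SD between these spots for CD79B and 3.31 times for XBP1. PAX5 and CD38 had 1 spot for each probe, so they have no such ratio. Repeat spots share their labelling and hybridisation, whose error was not measured here.

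The second question was which of the 9 transcripts went up and down together over the 32 mares. Pearson's r and Spearman's rho were computed for all 36 pairs, each with a two-sided permutation test and Benjamini-Hochberg adjustment over the 36 pairs. The 15 pairs of B cell genes all had r above 0, from 0.31 to 0.90 with a median of 0.72, and 14 of them passed an adjusted p of 0.05. On every slide alone all 15 were above 0 as well, and their median lay between 0.57 and 0.87.

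**Figure D3:**
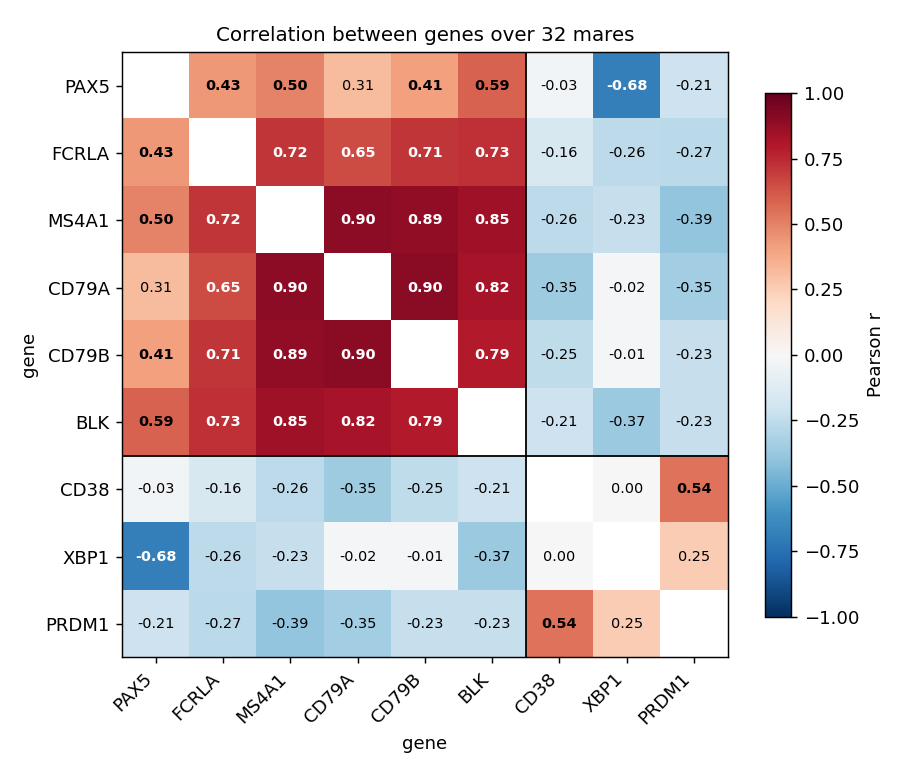
Pearson correlation of every pair of the 9 genes over 32 mares, with adjusted p under 0.05 in bold. The block of 6 B cell genes is positive throughout, and PAX5 with XBP1 is the only mixed pair in bold.

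MS4A1, CD79A, CD79B and BLK formed the tightest block. MS4A1 with CD79A gave r = 0.90 and rho = 0.90, and r = 0.87 without the 2 mares farthest from the MS4A1 median. CD79A with CD79B gave r = 0.90 and rho = 0.92, with r between 0.83 and 0.98 on single slides. MS4A1 with CD79B gave r = 0.89 and MS4A1 with BLK r = 0.85. The permutation p of each of these pairs was 1e-05, the smallest that 100000 resamples can give. FCRLA stood slightly outside, with r of 0.65 to 0.73 with those 4 genes, and on slide 4 alone these lay between 0.21 and 0.46.

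PAX5 was the loosest B cell member. Its r was 0.59 with BLK (permutation p = 0.00035, adjusted 0.00105), 0.50 with MS4A1, 0.43 with FCRLA, 0.41 with CD79B and 0.31 with CD79A, and the last did not pass (adjusted permutation p = 0.136). Within the progressive mares these 5 values lay between 0.53 and 0.78, and within the brutal mares between 0.13 and 0.42, a difference that was not tested.

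The mare with the highest mean of the B cell levels, progressive 9, ranked first of 32 in FCRLA, MS4A1 and BLK, second in PAX5 and CD79B, and 3rd in CD79A. The mare with the lowest mean, brutal 6, ranked last in FCRLA, MS4A1, CD79A and CD79B, 30th in BLK and 28th in PAX5. Other mares ranked less alike, such as brutal 8, first in CD79A but 31st in PAX5, and brutal 13, first in CD79B but 19th in PAX5. In the mare brutal 6 CD38 ranked 2nd, XBP1 11th and PRDM1 15th of 32. In progressive 9 CD38 ranked 8th, XBP1 24th and PRDM1 26th. The mean of the 6 B cell levels ran from -0.59 to 0.78 in progressive mares and from -0.81 to 0.49 in brutal mares, a 3.01-fold span over all mares.

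CD38, XBP1 and PRDM1 did not form such a block. CD38 with PRDM1 gave r = 0.54 (permutation p = 0.00143, adjusted 0.00396) and rho = 0.48, r = 0.43 without the 2 farthest mares, and between 0.41 and 0.75 on single slides. XBP1 with PRDM1 gave r = 0.25 and XBP1 with CD38 r = 0.00, and neither passed. The XBP1 and CD38 value turned sign with the scaling, down to -0.09, and was 0.31 without the 2 farthest mares.

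Between the kinds, all 18 values of r lay below 0, from -0.68 to -0.01 with a median of -0.24, and 1 of them passed by r. The sign was not uniform within slides, where 2 of the 18 lay above 0 on slide 1, 9 on slide 2, 8 on slide 3 and 0 on slide 4, nor within the brutal mares alone, where 4 did. The pair that passed was PAX5 with XBP1, at r = -0.68 (permutation p = 4e-05, adjusted 0.000144) and rho = -0.68. It was r = -0.66 without the 2 farthest mares and lay between -0.75 and -0.41 on single slides. PAX5 and XBP1 were also the members that moved most with the array as a whole. Their r with the first principal component of all genes, which holds 16.8% of the variance, was -0.70 for PAX5 and 0.72 for XBP1, against -0.23 to 0.20 for the other 7 members. Their r with the 75th percentile signal was 0.44 for PAX5 and -0.44 for XBP1, against -0.30 to 0.04 for the other 7 members. With quantile normalisation PAX5 with XBP1 gave r = -0.46 (adjusted permutation p = 0.0193). Its rho was then -0.37 and did not pass (adjusted permutation p = 0.0758). PRDM1 with MS4A1 gave r = -0.39 (adjusted permutation p = 0.0557) and rho = -0.45 (adjusted 0.0255), so only the rank measure passed. The same held for BLK with XBP1, at r = -0.37 (adjusted permutation p = 0.0734) and rho = -0.42 (adjusted 0.0359). PAX5 with PRDM1 did not pass, at r = -0.21 (adjusted permutation p = 0.303), and lay between -0.72 and 0.31 on single slides. It was -0.41 within the progressive mares and 0.08 within the brutal mares.

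The label of the plasma cell members was checked against the other plasma cell genes, and for most of that list the data went against it. Among the 13 measured genes of that list, 5 followed each other closely, a group chosen after its values were seen and given as a description. They were JCHAIN (the joining chain of secreted IgM and IgA), MZB1 (a chaperone of antibody assembly), TNFRSF17 (BCMA, a survival receptor of plasma cells), IRF4 (a transcription factor of the plasma cell programme) and TXNDC5 (a disulfide isomerase). Over all 78 pairs of the 13 genes r ran from -0.27 to 0.95 with a median of 0.45, and 36 exceeded 0.5. The 10 pairs of the chosen 5 ran from 0.88 to 0.95, and from 0.74 to 0.88 without the 2 mares farthest from the list's median. With CD38, XBP1 and PRDM1 the same 5 genes gave 15 values between -0.22 and 0.07, and between -0.43 and 0.11 without those mares. Over all 13 genes, 1 of 39 values with these 3 members exceeded 0.5. It was that of XBP1 with SSR4, a subunit of the translocon-associated complex of the ER, at 0.59. Of the 39 values 16 lay above 0, and SLAMF7 gave 0.35 with CD38, 0.35 with XBP1 and 0.29 with PRDM1. FKBP11 and SEC11C, not among the chosen 5, followed them at 0.81 to 0.90 and 0.78 to 0.83. SEC11C gave 0.28 with XBP1, -0.10 with CD38 and -0.17 with PRDM1. CD38 gave r = -0.06 with the mean level of all 13 genes, XBP1 r = 0.06 and PRDM1 r = -0.15, with adjusted permutation p between 0.686 and 0.898. On single slides CD38 lay between -0.20 and 0.14 and PRDM1 between -0.50 and 0.01, while XBP1 was -0.09 on slide 1, 0.41 on slide 2, 0.81 on slide 3 and 0.25 on slide 4. Without the 2 farthest mares PRDM1 was at -0.37.

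**Figure D4:**
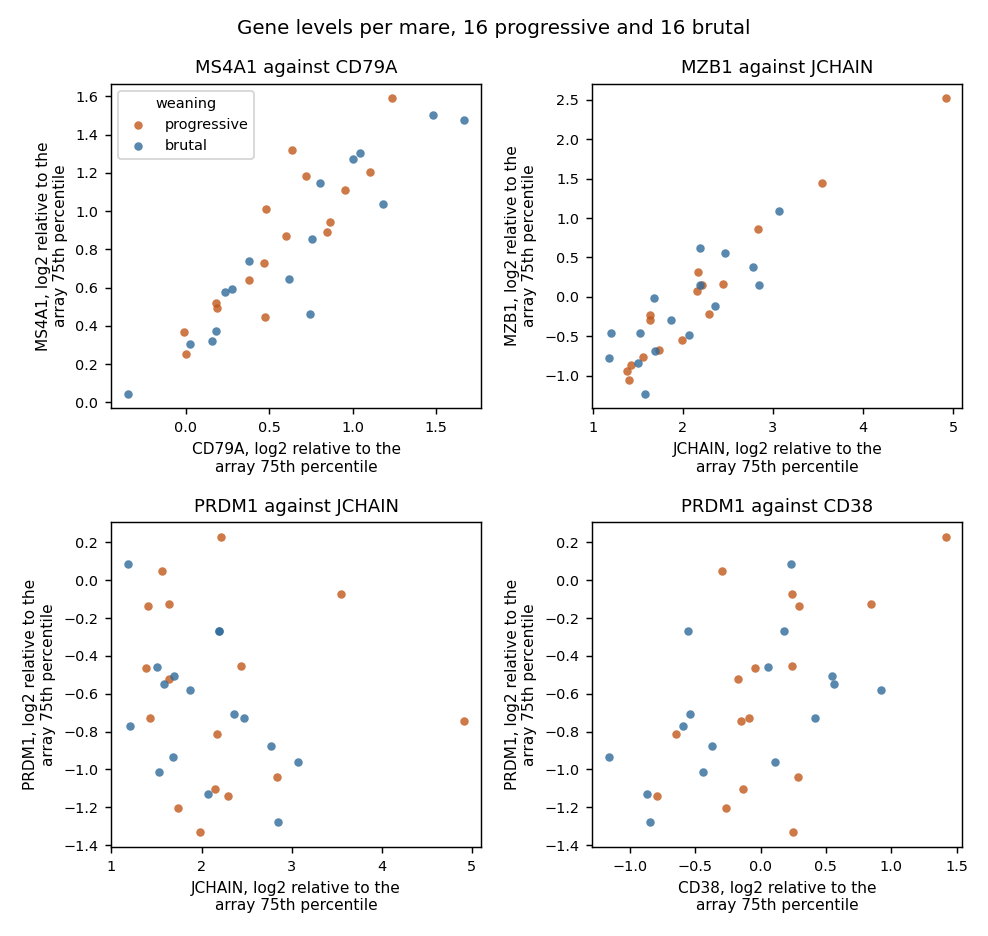
Log2 levels per mare relative to the array's 75th percentile, progressive in orange and brutal in blue, for MS4A1 against CD79A, MZB1 against JCHAIN, PRDM1 against JCHAIN and PRDM1 against CD38. The first 2 panels run along a line, PRDM1 shows none with JCHAIN, and the mare progressive 2 lies alone at a JCHAIN level of 4.92.

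The mare progressive 2 had the highest mean level of the 13 plasma cell genes, 2.70 against a median of 1.07 over all mares, with JCHAIN at 4.92, MZB1 at 2.52 and TNFRSF17 at 2.15. In the same mare CD38 ranked 19th, XBP1 17th and PRDM1 19th of 32. CD38, XBP1 and PRDM1 are therefore named below by symbol.

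Marker levels of other blood cells moved with several members. Each member was set against the mean level of 9 lists over the 32 mares, 81 relations in all, and 9 passed an adjusted permutation p of 0.05 by r. PRDM1 was correlated with the neutrophil list (r = 0.56, rho = 0.56, adjusted permutation p = 0.0212) and with the monocyte list (r = 0.55, rho = 0.55, adjusted permutation p = 0.0212). On single slides these were 0.26 to 0.86 and 0.16 to 0.77. XBP1 gave r = 0.48 with the neutrophil list (adjusted permutation p = 0.0425). It was -0.07 to 0.74 on single slides and 0.38 after quantile normalisation. With the list of secretion and unfolded protein response genes XBP1 passed by rank alone (rho = 0.64, adjusted permutation p = 0.00378; r = 0.45, adjusted 0.0514), and its r there was 0.06 after quantile normalisation.

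Over all mares the 6 B cell genes had r below 0 with both lists, and not all passed. MS4A1 gave r = -0.63 with the monocyte list (rho = -0.66, adjusted permutation p = 0.0113), between -0.71 and -0.38 on single slides, and r = -0.52 with the neutrophil list. BLK gave r = -0.54 with the monocyte list, FCRLA r = -0.51 and PAX5 r = -0.53 with the neutrophil list, each past the threshold by r. For FCRLA and PAX5 the rank correlation with neutrophil markers did not pass (adjusted permutation p = 0.0629 for both). CD79A and CD79B passed by r with neither list, with adjusted permutation p of 0.0514 and 0.0543 for the monocyte list and 0.307 and 0.220 for the neutrophil list. By rank both passed with the monocyte list (rho = -0.52 for each, adjusted permutation p = 0.0295). FCRLA also passed there by rank alone (rho = -0.48, adjusted permutation p = 0.0393). On slide 2 alone all these relations with the neutrophil list were weak. There r was 0.03 for PAX5, 0.09 for BLK, -0.04 for MS4A1, -0.06 for FCRLA, -0.06 for CD79A and -0.17 for CD79B. PAX5 also gave r = -0.56 with the list of secretion and unfolded protein response genes, and -0.38 after quantile normalisation. Levels within an array are relative to each other, and how far these cell types account for the members' values was not tested.

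**Figure D5:**
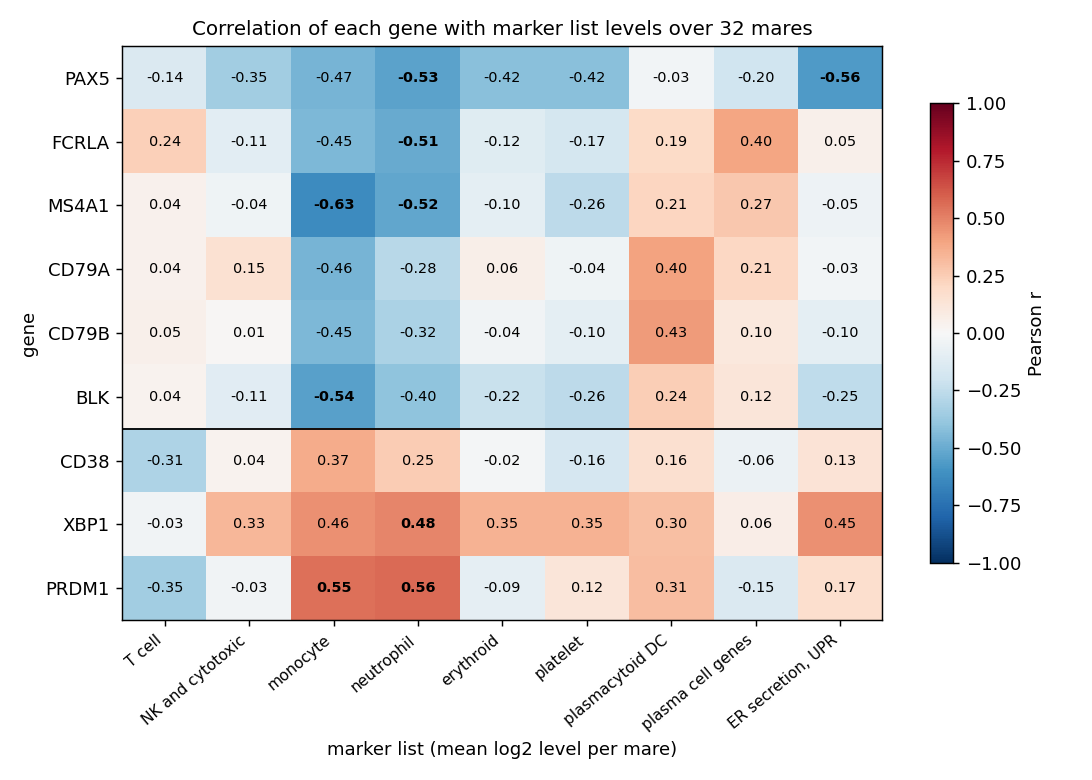
Pearson correlation of each gene with the mean level of 9 marker lists over 32 mares, with adjusted p under 0.05 in bold. The B cell genes are below 0 with monocyte and neutrophil markers, where CD38, XBP1 and PRDM1 are above 0.

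The genes most like each member over the 32 arrays were searched among 9388 other genes, as a description with no test. For the mean of the 6 B cell genes they included NUGGC (r = 0.92), TMEM206 (0.90), KCTD1 (0.87), BLNK (0.86), XIRP1 (0.86), BCL11A (0.85) and ZKSCAN3 (0.85). BLNK is the adaptor that links the receptor to its downstream enzymes, and BCL11A a transcription factor of B cell development. Genes much like FCRLA included ST7 (0.75) and NUGGC (0.74), and those much like MS4A1 included BLNK (0.91) and NUGGC (0.90). For CD79A the list read CXXC5 (0.89), PKIG (0.89) and ARSI (0.87). For CD79B it included KCTD1 (0.88) and ARSI (0.86), and for BLK it included TMEM206 (0.84) and XIRP1 (0.82).

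PAX5 was most like PRR14L (0.86), TCF4 (0.85) and SLC9A7 (0.84). XBP1 was most like GTPBP1 (0.80), PAGR1 (0.79) and SLC25A11 (0.78). PRDM1 was most like the gene listed as STAT-3 (0.83), P2RY13, a purinergic receptor (0.82), and CPEB4, which binds RNA (0.81). CD38 was most like SERPING1, the C1 inhibitor of complement (0.74), CDS1 (0.73) and GBP5, a guanylate-binding protein that interferon induces (0.71). JCHAIN ranked 4611th of 9396 genes for CD38, 5997th for XBP1 and 6130th for PRDM1.

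The wider B cell lists split by how they followed the B cell mean. Of the 14 surface genes, 12 had r above 0 with it, with a median of 0.63, among them CD180 and CD22 at 0.81 each, CD72 at 0.74 and FCER2 at 0.64, while CD81 was at -0.24. Of the 10 transcription factors, 9 were above 0, with a median of 0.53. EBF1 (an early B lineage factor that acts with PAX5) was at 0.84, POU2F2 at 0.80 and POU2AF1 at 0.24. BCL6 was at -0.43 and gave 0.65 with PRDM1. Of the 13 signalling genes, 8 were above 0, with a median of 0.23. BLNK was at 0.86 and BANK1 at 0.82, while PIK3CD was at -0.43 and LYN at -0.22. PIK3CD and LYN gave r of 0.63 and 0.60 with PRDM1. Across all 9397 genes the median r with the B cell mean was 0.01, and 288 genes exceeded 0.5. The genes in this paragraph beyond the named rule were chosen after their values were seen.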

How the data were processed

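Total RNA from whole blood of 32 mares, 16 after progressive and 16 after brutal weaning, was hybridised to 1 single-colour array each. In the deposited scanner files each spot has an intensity, read out with Agilent Feature Extraction 10.10.1.1 per the submitters' processing notes, with the background subtracted and spatial trends removed per the file headers. The deposited series table holds log2 values with array medians between 8.397 and 8.399, scaled by a method not given in the sources used here. It was used as an alternative, after each column was checked against its scanner file (rank correlation of 0.996 or more, against 0.986 or less for the files of other mares).

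Of 62976 spots, 1319 control spots and all spots the software marked as outliers were left out. Arrays had 75th percentile signals between 339.5 and 646 (intensity), with 53.0 to 66.0% of spots well above background. Arrays of the first row of a slide had 59.8 to 66.0% and those of the second row 53.0 to 59.6%. Signals were divided by that percentile, turned to log2 and averaged per probe. Probes well above background on at least 8 of 16 arrays of a group were tested, 26368 of 43987, and the brightest tested probe stood for a gene.

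Progressive mares were set against brutal mares with limma 3.58.1 (R 4.3.3; lmFit, eBayes, a model of group alone). Tests were two-sided, and p-values were adjusted by Benjamini-Hochberg over all tested probes, or over 9397 genes for counts of genes. The error of a difference is limma's SE, and intervals are at 95%. Correlations over mares used two-sided permutation tests of 100000 resamples in numpy 2.4.6 under Python 3.11.15, with pandas 2.3.3, scipy 1.17.1 and matplotlib 3.10.9. The scripts were tested on simulated data.

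The members and the other 12 gene lists were chosen with earlier results of these data known. Named genes are all members, the 2 genes of each other list with the smallest unadjusted p, and for likeness the 3 most similar genes per member and 8 for the B cell mean, of which 1 gene is not reported here. Genes named beyond this were chosen after their values were seen. Coordinates and probe sequences are those of the deposited files, on EquCab1 per the file headers. The probe of XBP1 is not printed. Alternatives were normexp (offset 50), the series table, quantile normalisation, a 75th percentile over the 21091 probes seen on every array, a slide block, single slides, slides left out, other filters, eBayes with trend and robust options, the mean of a gene's probes, leaving out the array progressive 16, each group alone, centred values and, added after the data were seen, array row. The number of arrays limits the precision.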

Additional observations from a re-analysis of the deposited data

How the results depend on the processing

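No paired analysis was possible because the labels tie no progressive mare to a brutal one. No member passed the threshold under any of the 19 alternatives to the weaning comparison, and of 135 differences recomputed with more than 1 slide 130 kept their sign. The sign turned for MS4A1 (-0.074), BLK (-0.086) and CD79B (-0.10) without slide 3, for CD79B without slide 2 (-0.013) and for CD79A without slide 1 (0.014). Of 36 differences on single slides 11 turned sign, in 8 of the 9 genes (all but PAX5), among them CD79A on slide 3 (0.33), CD79B (-0.37), PRDM1 (-0.28) and CD38 (-0.23) on slide 4, BLK on slide 2 (-0.20) and XBP1 on slide 2 (0.06). FCRLA and BLK moved to 0.53 and 0.52 on slide 3 alone. Limma called 1 probe on slide 4 alone and 0 probes under the other alternatives. Counts at an unadjusted p under 0.05 were 415 probes and 141 genes without slide 3, 406 and 137 without slide 4, 354 and 102 on slide 1 alone, and 455 probes on slide 2 alone, against 726 and 239 over all slides. The list medians moved by more than 1 SD only on single slides. On slide 3 alone they were 0.49 for the B cell members, 0.25 for the B cell transcription factors and -2.27 for the erythroid markers. On slide 4 alone they were -0.23 for CD38, XBP1 and PRDM1, -0.21 for the signalling genes and -0.41 for the NK markers. On slide 2 alone they were 0.40 for the NK, 0.42 for the erythroid and 0.29 for the platelet markers. The cause was not tested.

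The median r of the B cell pairs was 0.87 on slide 3 and 0.57 on slide 4, that of the mixed pairs -0.0067 on slide 2 and -0.47 on slide 4, and that of CD38, XBP1 and PRDM1 -0.090 on slide 2 and -0.094 on slide 3. Against 1 mixed pair past the threshold over all mares, there were 5 after centring by slide and group, 3 after centring by slide and array row, 3 with the percentile over detected probes, 3 in progressive mares alone and 2 without the array progressive 16. CD38 with PRDM1 did not pass in brutal mares alone, so 0 of those 3 pairs did. Permutation p-values of centred values do not allow for the means removed. CD38 with XBP1 was -0.12 in progressive mares alone and 0.20 in brutal mares alone, and turned sign with normexp (-0.015), quantile normalisation (-0.037), the 75th percentile of detected probes (-0.090), the series table (-0.068) and centring by slide and group (-0.066) or by slide and array row (-0.024). PAX5 with CD38 was 0.036 with the 75th percentile of detected probes, and CD79A with XBP1 was 0.014 and 0.054 after the same 2 centrings. PAX5 with CD79A passed with normexp (0.41), and PAX5 with FCRLA did not pass after centring by slide and group (0.31).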

Other observations

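The immunoglobulin transcripts on the array, a set chosen after its values were seen and given as a description with no test, did not share 1 pattern. The IgG3 heavy chain constant region followed the mean of the B cell members (r = 0.68 over 32 mares). So did that of IgD, an antigen receptor class that naive B cells carry beside IgM (r = 0.52). The IgM heavy chain (0.14), IgE heavy chain (0.03), kappa light chain (0.25) and lambda light chain (0.34) followed it less. With JCHAIN the order differed, at 0.86 for the lambda light chain, 0.58 for IgM, 0.48 for IgG3, 0.45 for kappa, 0.16 for IgD and 0.15 for IgE. With CD38, XBP1 and PRDM1 the 6 transcripts gave r between -0.26 (IgD with PRDM1) and 0.21 (IgM with CD38).

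The IgE heavy chain transcript spread widely over the mares, with log2 levels from -1.37 to 1.84 in progressive mares and from -1.85 to 2.41 in brutal mares. Its means were 0.06 ± 0.78 (SD, n = 16) in progressive mares and -0.01 ± 1.22 (SD, n = 16) in brutal mares. IgD averaged -0.54 ± 0.48 in progressive mares and -0.44 ± 0.42 in brutal mares (SD, n = 16 each). Between progressive and brutal mares the kappa light chain differed by -0.24 (SE 0.30), IgG3 by 0.12 (SE 0.20), IgD by -0.11 (SE 0.15), the lambda light chain by 0.07 (SE 0.19), IgE by 0.07 (SE 0.35) and the IgM heavy chain by -0.01 (SE 0.18).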
